A study of Sus scrofa with 4 samples.

Results

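The genes described here encode glycolytic enzymes and the proteins that steer pyruvate and fuel use. They are GAPDH, LDHA, LDHB, HK2, PDK4, PRKAA2 and HIF1A. A probe was taken as a member where its RefSeq accession belongs to the pig gene of that name, whatever its signal. This gave 28 probes of 7 genes, out of 43597 probes and 3020 named genes on the array. PDK4 had 9 probes and LDHB 12, GAPDH and HIF1A 2 each, and the other genes 1 each.

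Thymus RNA of pigs of the Minnesota miniature swine breed was measured on 4 arrays. There were 2 arrays of pigs of the genotype IL2RG+/-, called KO, and 2 of wildtype pigs, called WT. The KO pigs carried the mIL2RG+/Δ69-368 alteration, which was made with TALENs, nucleases that cut a chosen DNA site, and they were produced by nuclear transfer from edited cell colonies. IL2RG encodes the common gamma chain, a receptor subunit shared by several interleukin receptors. The KO animals on the arrays were those in which a thymus, described as rudimentary, could be found, and their age is not given in the sources used here. The design text speaks of 2 experiments per genotype without saying that the WT arrays came from separate animals, so that the p values measure the spread between these samples, which may in part be technical.

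Glycolysis turns glucose into pyruvate. Hexokinase traps glucose in the cell, GAPDH catalyses the step that yields NADH, and lactate dehydrogenase passes that NADH back to pyruvate, which leaves the cell as lactate. Pyruvate dehydrogenase instead sends pyruvate into the mitochondrion for oxidation, and its kinases, PDK4 among them, switch that route off when fatty acids are the fuel. AMP-activated protein kinase senses low cellular energy, and HIF1A drives many glycolytic genes when oxygen is scarce. Dividing thymocytes, the developing T cells that fill a normal thymus, are known for high glycolysis.

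Each value is the log2 signal of a probe minus the 75th percentile of its array, so that 0 is a signal at that percentile. A probe was called different in limma at a Benjamini-Hochberg adjusted p under 0.05 over all 31960 tested probes with a change of at least 2-fold. The adjusted p values below are those of this test, with n = 2 arrays per genotype. Slide 1 held KO replicate 1 with WT replicate 2, while slide 2 held KO replicate 2 with WT replicate 1. Each slide had a scan of its own. The difference within each slide is therefore given beside the pooled one.

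All 28 member probes were tested, and 12 were called. The called probes were 10 higher in KO, namely all 9 of PDK4 and the 1 of PRKAA2, and 2 lower, namely that of LDHA and the dimmer one of GAPDH. Over all tested probes 34.0% were called, 21.0% as higher and 13.0% as lower. With the arrays scaled to their median instead, these shares were 18.2% and 19.8%. Probes of the same gene share a target and are not independent, so that the count of 12 follows the number of PDK4 probes. At an adjusted p under 0.05 with any fold there were 14 member probes, against 48.1% of all tested probes. By the brightest probe of each gene, 2 genes were called higher, 1 lower and 4 were not called, where 37.8% of named genes were called.

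**Figure D1:**
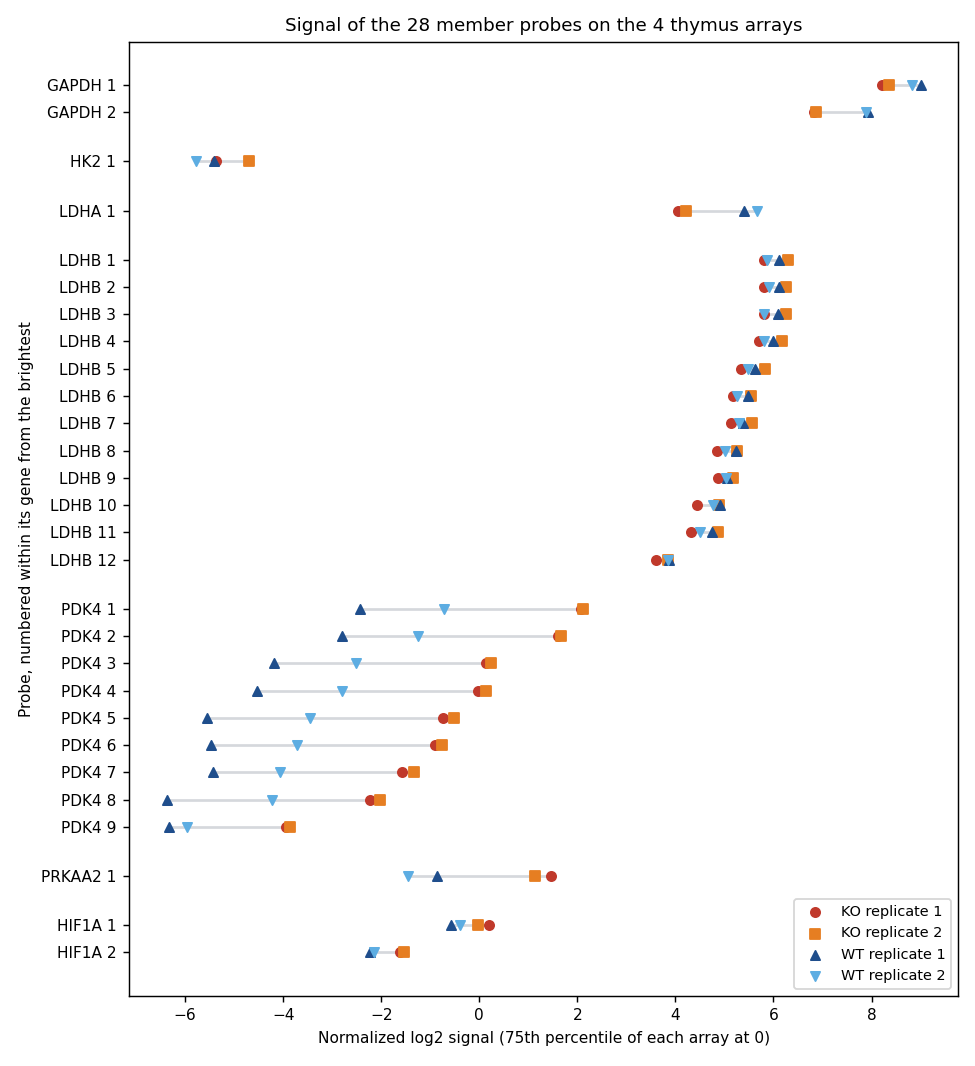
Normalized log2 signal (x axis, 75th percentile of each array at 0) of the 28 member probes (y axis, grouped by gene and numbered from the brightest), with 1 point per array. Both KO points lie to the right of both WT points at all 9 PDK4 probes, at PRKAA2, at HK2 and at both HIF1A probes. They lie to the left at LDHA and both GAPDH probes, and the genotypes overlap at all 12 LDHB probes.

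Markers of several cell types also differed between the genotypes. IL2RG itself fell by 3.41 on the log2 scale in KO (SE 0.27, adjusted p = 0.0026). All 14 tested thymocyte markers and all 8 markers of cycling cells were called lower, with median log2 fold changes of -3.11 and -2.50, and so were all 3 B cell markers. All 11 macrophage markers were higher, with a median of 2.19, as were 5 of 6 of endothelium, 3 of 4 of epithelium, 3 of 5 of fibroblasts and 4 of 10 of adipocytes. Of 17 skeletal muscle markers 1 was higher and 7 were lower by the brightest probe. The higher one, CASQ1, was not well above background on either WT array and entered the test through its KO arrays alone. It was at least 1.45-fold higher in KO, a bound under 2-fold. Among the lower ones MYL1 was not well above background on either KO array. Probes disagreed for some of those not called, with 7 of 10 probes of CKM and 3 of 4 of DES higher and 7 of 16 of ACTA1 lower. For erythroid cells the 1 marker was not called. The summed linear signal of the thymocyte markers, in multiples of the 75th percentile, was 33.0 to 34.3 in KO and 257 to 371 in WT, and that of the macrophage markers 351 to 425 against 69.4 to 93.6. Every thymocyte and macrophage marker was well above background on at least 1 array of each genotype. In a bulk sample such as this, fewer cells of a type and less RNA per cell cannot be told apart, and the part of these markers in the results below was not tested.

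LDHA, the lactate dehydrogenase subunit that favours the making of lactate, was lower in KO. Its signal was 4.04 and 4.21 in KO replicates 1 and 2, against 5.40 and 5.67 in WT replicates 1 and 2. Both KO arrays lay below both WT arrays, as they did at 41.0% of all tested probes. The log2 fold change was -1.41 (SE 0.18, 95% interval -1.90 to -0.92, adjusted p = 0.0065), a 2.65-fold fall. Within slide 1 the difference was -1.62 and within slide 2 it was -1.19. The call was lost when KO replicate 1 was left out, with a log2 fold change of -1.32 and an adjusted p of 0.057.

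LDHB, the subunit that predominates where lactate is used as a fuel, did not pass limma's test at any of its 12 probes, and 0 of them had an unadjusted p under 0.05 in limma or by the methods' t-test. The brightest read 5.80 and 6.29 in KO and 6.11 and 5.88 in WT. At that probe KO replicate 2 was the highest and KO replicate 1 the lowest, with the WT arrays between them. The log2 fold change of that probe was 0.05 (SE 0.24, 95% interval -0.58 to 0.68, adjusted p = 0.87). Over the 12 probes the fold changes ran from -0.17 to 0.09, and the genotypes overlapped at each one. The intervals leave room for a change of up to about 0.76 in size on the log2 scale (the lowest bound was -0.76), so that a difference smaller than 2-fold may have gone undetected at this number of arrays. The pig RefSeq table holds 2 entries named LDHB. All 12 probes carry the accession of 1 of them, and transcripts of such a copy may share the probes.

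The log2 ratio of LDHA to LDHB within an array does not depend on how the arrays are scaled. It was 1.46 lower in KO (log2 ratio difference -1.46), with -1.55 within slide 1 and -1.37 within slide 2. Neither KO array overlapped the WT arrays. The exact two-sided permutation p was 0.333 (0.444 after adjustment over the 12 ratios computed), the smallest that 2 arrays against 2 can give, so that the difference did not pass a test.

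**Figure D2:**
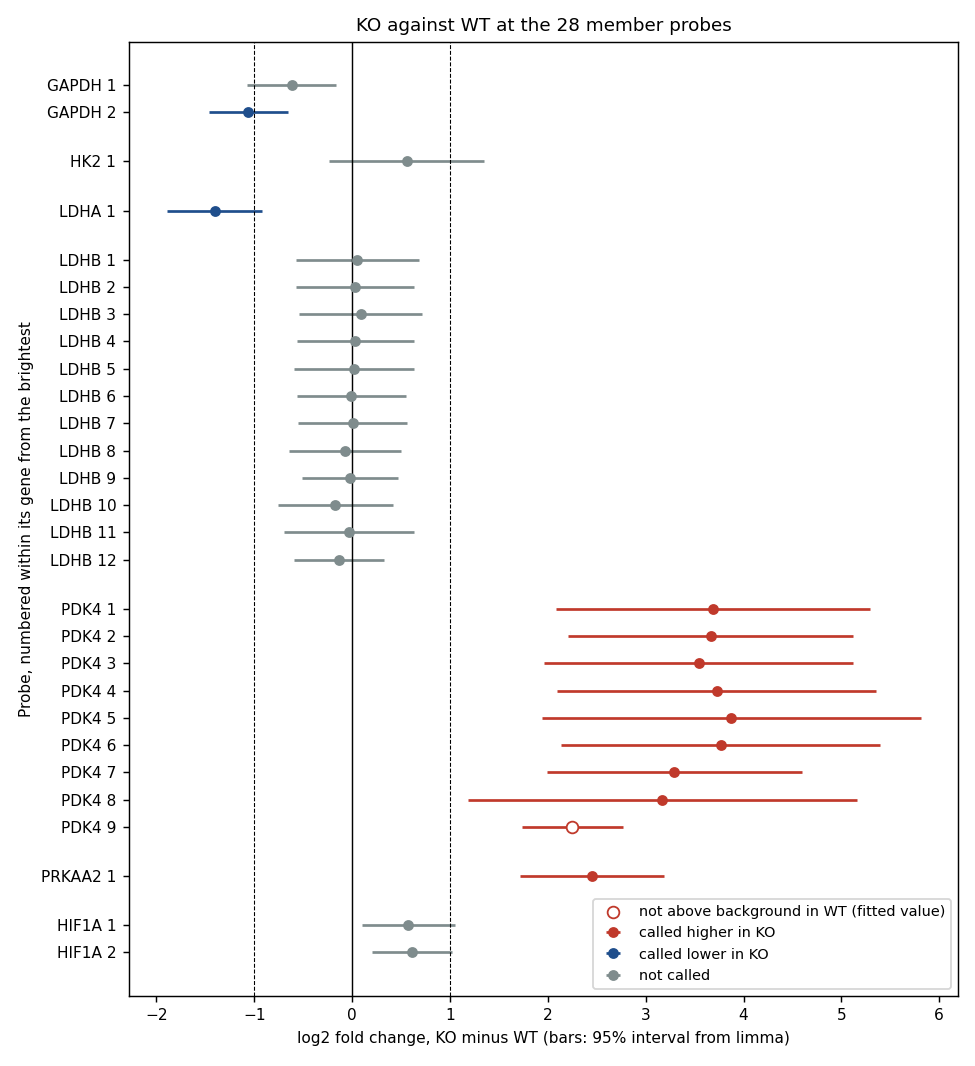
Log2 fold change of KO against WT (x axis) for each of the 28 member probes (y axis), with 95% intervals from limma and dashed lines at 2-fold. Blue marks probes called lower, red those called higher and grey those not called, and the open point is a PDK4 probe not well above background in WT. The other 8 PDK4 probes run from 3.17 to 3.87, and the LDHB probes from -0.17 to 0.09.

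GAPDH, the glycolytic enzyme often taken as a constant reference in RT-qPCR, and used so in this study, was read by 2 probes that differed in call. The brighter one read 8.22 and 8.36 in KO against 9.00 and 8.82 in WT. Its log2 fold change was -0.62 (SE 0.17, 95% interval -1.07 to -0.17, adjusted p = 0.040). It passed the p threshold but not the 2-fold limit. Its adjusted p was over 0.05 with quantile normalization (0.071), with the log2 values deposited by the authors (0.062), without a filter on dim probes (0.075), with the replicate number as a block (0.116), and without KO replicate 1 (0.272), KO replicate 2 (0.194) or WT replicate 1 (0.061). The dimmer probe read 6.83 and 6.87 in KO against 7.93 and 7.89 in WT, and its log2 fold change of -1.06 (SE 0.15, adjusted p = 0.0079) was just past 2-fold. At both probes both KO arrays lay below both WT arrays, as at 41.0% of all tested probes. Within the slides the brighter probe differed by -0.60 and -0.64, and the dimmer one by -1.06 and -1.07. Quantile normalization and the log2 values deposited by the authors each gave -0.84 for the dimmer probe, under 2-fold, and its adjusted p was 0.081 without KO replicate 1 and 0.080 without KO replicate 2.

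Other genes in common use as RT-qPCR references did not move with GAPDH in every case. Of 7 tested, TUBB, a tubulin, was called lower with a log2 fold change of -1.21 (SE 0.15, adjusted p = 0.0061), which rose to 0.059 without KO replicate 1 and to 0.065 without KO replicate 2. PPIA, a peptidyl-prolyl isomerase, differed by -0.69 (adjusted p = 0.022) and PGK1, the next enzyme of glycolysis, by -0.63 (adjusted p = 0.035), both under 2-fold. B2M, the light chain of MHC class I, was on the other side at 0.76 (adjusted p = 0.031). The log2 fold changes of RPL32, HPRT1 and RPS18 were -0.21, -0.22 and -0.42, with adjusted p values of 0.36, 0.29 and 0.16. The median of the 7 was -0.42, where that of all named genes was -0.0036.

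**Figure D3:**
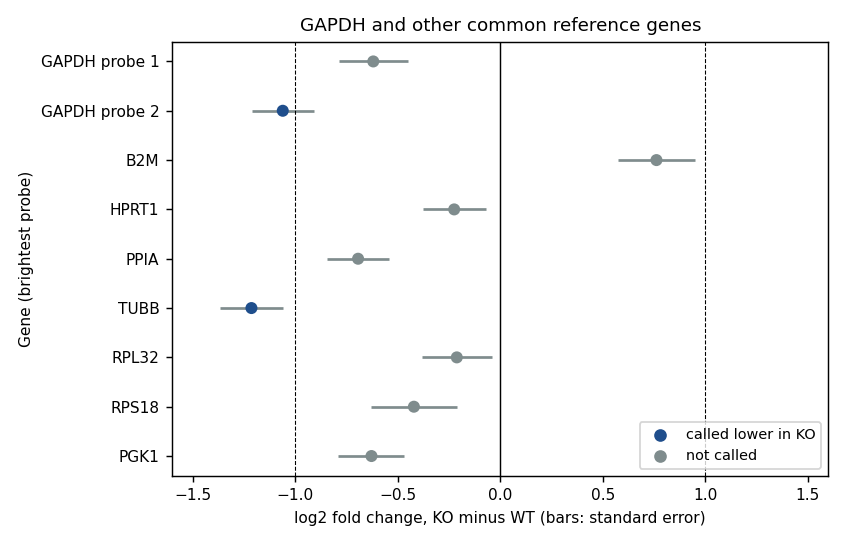
Log2 fold change of KO against WT (x axis) of both GAPDH probes and of 7 other common reference genes (y axis), with standard errors and dashed lines at 2-fold. B2M alone lies to the right of 0, and TUBB and the dimmer GAPDH probe lie past the 2-fold line on the left.

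As a ratio within each array, the brighter GAPDH probe was 1.38 lower in KO relative to B2M (log2 ratio difference -1.38) but 0.59 higher relative to TUBB. Relative to HPRT1, RPL32 and RPS18 the differences were -0.39, -0.41 and -0.20. In these 5 ratios the KO arrays did not overlap the WT arrays, and each exact permutation p was 0.333. The ratios to PPIA and PGK1 differed by 0.07 and 0.01 and overlapped. The sign of the GAPDH ratio thus differed with the partner gene on these arrays.

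HK2, the inducible hexokinase of muscle, fat and dividing cells, had 1 probe, which read -5.37 and -4.71 in KO against -5.41 and -5.78 in WT. Both KO arrays lay above both WT arrays, as at 37.7% of all tested probes, but KO replicate 1 exceeded WT replicate 1 by only a small margin. The log2 fold change was 0.56 (SE 0.30, 95% interval -0.23 to 1.35, adjusted p = 0.18) and was not called, and under the normexp background correction it turned to -0.079. HK1, the hexokinase found in most tissues, was not called either, with KO values of 5.38 and 5.44 against 5.03 and 5.14 in WT. The log2 ratio of HK2 to HK1 differed by 0.23 and its values overlapped (exact permutation p = 0.667).

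Of the 24 glycolytic enzyme genes listed, 12 had a tested named probe. In limma 0 were called higher, 3 were called lower and 9 were not called, with a median log2 fold change of -0.28. At an unadjusted p under 0.05, 1 was higher and 6 were lower in limma, and 2 and 6 by the methods' t-test. Among all named genes 25.1% were called higher and 12.6% lower. These shares hold for calls at an adjusted p under 0.05 with at least 2-fold and are no base for the unadjusted counts. Over all tested probes 48.1% had an adjusted p under 0.05 at any fold, so that probes passing the unadjusted limit are common. The 3 lower ones were LDHA, PGAM2 and ENO3, of which PGAM2 and ENO3 are the muscle forms of phosphoglycerate mutase and enolase. PGAM2 read -2.82 and -3.31 on the KO arrays and 0.42 and 0.37 on the WT arrays. It fell by 3.46 on the log2 scale (SE 0.22, adjusted p = 0.0021). ENO3 differed by -1.12 (SE 0.23, adjusted p = 0.019), and its call was lost without KO replicate 1 (adjusted p = 0.116), without KO replicate 2 (adjusted p = 0.092) and without WT replicate 1 (-0.88, under 2-fold). The summed signal of the 17 skeletal muscle markers was 32.2 to 32.9 in KO and 48.0 to 62.5 in WT. ACTA1, the brightest marker, weighs most in this sum, with a log2 fold change of -0.72 at its brightest probe. The median log2 fold change of the 17 markers was -1.82. The part of muscle RNA in these 2 genes was not tested. TPI1, at -0.58 (adjusted p = 0.046), and PFKM, a muscle form of phosphofructokinase, at 0.69 (adjusted p = 0.024), passed the p threshold but stayed under 2-fold, as did GAPDH and PGK1. HK1, HK2, GPI, ALDOC and LDHB did not pass it.

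Glucose entry, the control of phosphofructokinase and lactate transport made up a further list. Of its 12 genes, 4 were tested, and 2 were higher, 1 lower and 1 not called. Of all named genes 25.1% were called higher and 12.6% lower. SLC16A1, the lactate transporter MCT1, read -2.80 and -2.44 in KO against 0.56 and 0.65 in WT, and fell by 3.22 on the log2 scale (SE 0.20, adjusted p = 0.0021). BSG, the chaperone that brings this transporter to the cell surface, was not called. SLC2A4, the insulin-dependent glucose transporter GLUT4, read 1.43 and 2.35 in KO against -1.01 and -3.73 in WT. Its log2 fold change was 4.26 (SE 0.98, adjusted p = 0.026), and the adjusted p was 0.059 without KO replicate 1 and 0.095 without KO replicate 2. Without WT replicate 1 the log2 fold change was 5.62 and without WT replicate 2 it was 2.90. Of its 3 tested probes 2 were called higher, the brightest and A_72_P448551. The latter was not well above background on either WT array and entered the test through its KO arrays alone. The remaining probe, measured in both genotypes, was not called, at 0.45 (adjusted p = 0.25). PFKFB1, which sets the level of the main activator of phosphofructokinase, read -3.67 and -1.70 in KO and was not well above background on either WT array. It was at least 8.78-fold higher in KO. It entered the test through its KO arrays alone, so that its call (adjusted p = 0.0065) does not test this bound. The bound was 4.44-fold without KO replicate 2 and 17.4-fold without KO replicate 1.

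PDK4, the kinase that shuts pyruvate dehydrogenase in fasting and fat use, was the member with the largest difference. Its brightest probe read 2.08 and 2.12 in KO against -2.44 and -0.72 in WT. The KO arrays differed by 0.04 and the WT arrays by 1.72, and there was no overlap, as at 37.7% of all tested probes in this direction. The log2 fold change was 3.69 (SE 0.60, 95% interval 2.08 to 5.29, adjusted p = 0.011), or 12.9-fold. Within slide 1 it was 2.80 and within slide 2 it was 4.57.

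The 9 PDK4 probes were all called higher. At the 8 probes measured on at least 1 array of each genotype, log2 fold changes were 3.17 to 3.87 and adjusted p values 0.0087 to 0.028. At every one of the 9 probes WT replicate 1 was below WT replicate 2. The dimmest probe (A_72_P443195) was not well above background on either WT array, so that it entered the test through its KO arrays alone. It gave at least 3.77-fold. The next dimmest (A_72_P661167) was well above background on 1 WT array. Under the normexp background correction the 8 measured probes gave 1.27 to 3.23, and the dimmest gave 0.41 and no call. The calls of 2 probes were lost without either KO array, at adjusted p values of 0.051 and 0.059 for A_72_P584171 and of 0.079 and 0.094 for A_72_P661167. With each array left out in turn, the brightest probe gave 2.83 (without WT replicate 1) to 4.55 (without WT replicate 2) and was called each time.

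**Figure D4:**
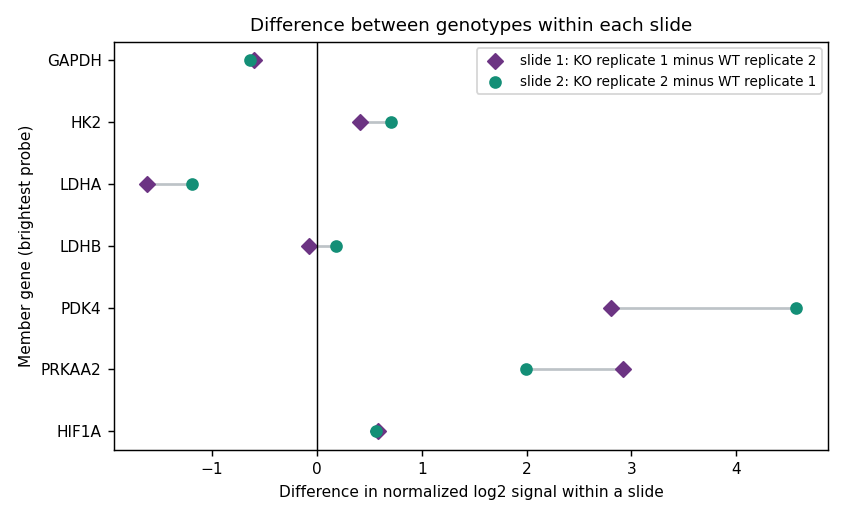
Difference in normalized log2 signal between the KO and the WT array of the same slide (x axis) for the brightest probe of each of the 7 genes (y axis). Both slides lie on the same side of 0 for all genes except LDHB, and they lie farthest apart for PDK4, at 2.80 and 4.57.

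The rest of the pyruvate route was mostly not called. Of 15 listed genes, 7 were tested, with 2 higher, 0 lower and 5 not called in limma. Of all named genes 25.1% were called higher and 12.6% lower. PC, pyruvate carboxylase, which refills the citric acid cycle, was higher by 2.10 (SE 0.31, adjusted p = 0.0088). PDK1, a kinase of the same family and a known HIF1A target, was not called, nor were PDHB, DLAT and DLD, subunits of the pyruvate dehydrogenase complex, or CS, citrate synthase. CS, at -0.43 with an adjusted p of 0.073, was the 1 gene lower at an unadjusted p under 0.05, in limma and by the methods' t-test. The log2 ratio of PDK4 to PDK1 within an array was 3.49 higher in KO, with 2.88 and 4.10 within slides 1 and 2 and no overlap (exact permutation p = 0.333).

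PRKAA2, the alpha 2 catalytic subunit of AMP-activated protein kinase, which prevails in muscle and liver, was higher in KO. It read 1.47 and 1.13 in KO against -0.86 and -1.45 in WT. There was no overlap, as at 37.7% of all tested probes in this direction. The log2 fold change was 2.45 (SE 0.27, 95% interval 1.72 to 3.19, adjusted p = 0.0047), or 5.48-fold. Within slide 1 it was 2.92 and within slide 2 it was 1.99, and with each array left out in turn it was 2.16 to 2.75, called each time.

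The other subunits tested did not follow it past the threshold. PRKAA1, the other catalytic subunit, and PRKAG2 had no named probe and could not be compared. Of 14 genes listed for this kinase and its targets, 6 were tested, with 2 higher, 0 lower and 4 not called in limma, and a median of 0.26. Of all named genes 25.1% were called higher and 12.6% lower. At an unadjusted p under 0.05, 1 was lower in limma, namely PRKAG1, and 0 by the methods' t-test. The second gene called was ACACA, the acetyl-CoA carboxylase of fat synthesis, which the kinase switches off by phosphorylation. ACACA was higher by 1.92 (SE 0.38, adjusted p = 0.017), by 0.95, under 2-fold, with the normexp background correction, and by 1.62 with an adjusted p of 0.080 without KO replicate 2. PRKAB1, PRKAB2 and PRKAG1, the beta and gamma subunits tested, and ACACB were not called, and PRKAG3 was not well above background. The log2 ratio of PRKAA2 to PRKAB1 was 2.33 higher in KO, with 2.73 and 1.94 within slides 1 and 2 and no overlap (exact permutation p = 0.333).

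HIF1A, the oxygen-regulated subunit of the hypoxia-inducible factor, whose amount is set largely by the breakdown of the protein, was not called at either of its probes. The brighter probe read 0.19 and -0.02 in KO against -0.58 and -0.39 in WT. Its log2 fold change was 0.57 (SE 0.18, 95% interval 0.10 to 1.05, adjusted p = 0.055). The dimmer probe read -1.62 and -1.54 against -2.24 and -2.16, with a log2 fold change of 0.62 (SE 0.15, adjusted p = 0.032), under 2-fold. At both probes both KO arrays lay above both WT arrays, as at 37.7% of all tested probes. The within-slide differences were 0.58 and 0.56 for the brighter and 0.54 and 0.69 for the dimmer.

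Of 20 genes listed for the hypoxia response, 8 were tested. VEGFA, EPAS1, ADM, EPO and HMOX1 were called higher, 0 were lower, and HIF1A, DDIT4 and P4HA1 were not called in limma. EPO entered the test through its KO arrays alone. It was at least 1.72-fold higher in KO, a bound under 2-fold that its call does not test. At an unadjusted p under 0.05 the counts were 7 higher and 0 lower in limma, and 6 higher and 0 lower by the methods' t-test. For comparison, 25.1% of all named genes were called higher and 12.6% lower in limma. By the methods' t-test 13771 of all 31960 tested probes had an unadjusted p under 0.05, both directions together. In limma 48.1% had an adjusted p under 0.05 at any fold, which is a stricter limit than the unadjusted one. Probes that pass the unadjusted limit are thus common across the array, and their share in each direction is not given here. VEGFA, the growth factor of blood vessels, was higher by 2.56 (SE 0.20, adjusted p = 0.0026). EPAS1, the HIF family member prominent in endothelium, was higher by 2.04 (SE 0.17, adjusted p = 0.0028). ADM, the vessel-dilating peptide adrenomedullin, was higher by 1.88 (SE 0.27, adjusted p = 0.0080). EPO was not well above background on either WT array and lost its call under the normexp background correction (adjusted p = 0.264), and HMOX1, heme oxygenase, lost its call without KO replicate 2 (adjusted p = 0.083). The summed signal of the 6 endothelial markers was 19.4 to 21.4 in KO and 4.71 to 7.20 in WT, beside the rise of the macrophage markers given above. Their part in this list was not tested. The log2 ratio of HIF1A to EPAS1 within an array was 1.47 lower in KO (log2 ratio difference -1.47), and it was -1.47 within each slide (exact permutation p = 0.333).

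**Figure D5:**
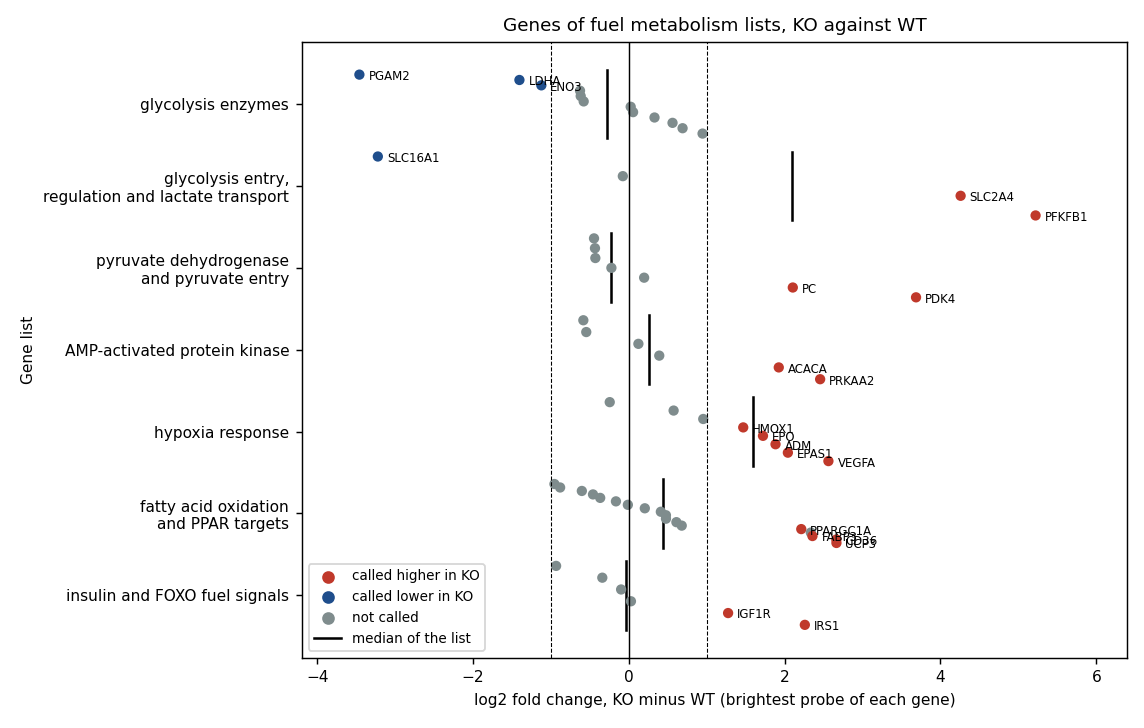
Log2 fold change of KO against WT (x axis) of the tested genes of 7 fuel metabolism lists (y axis), by the brightest probe of each gene, with the list's median as a black bar and dashed lines at 2-fold. Red genes were called higher, blue lower and grey were not called. The hypoxia response list holds 5 red points of 8, and the glycolytic enzymes 3 blue points of 12. The red points of EPO and PFKFB1 are fitted values of probes not well above background in WT.

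PDK4 is also known as a target of the fatty acid sensing PPAR receptors. Of 22 genes of fatty acid oxidation and PPAR targets, 18 were tested, and 4 were higher, 0 lower and 14 not called in limma, with a median of 0.44. At an unadjusted p under 0.05, 7 were higher and 4 lower in limma, and 2 and 3 by the methods' t-test. The 4 called higher were UCP3, CD36, FABP3 and PPARGC1A, where 25.1% of all named genes were called higher and 12.6% lower. These shares are no base for the unadjusted counts, as 48.1% of all tested probes had an adjusted p under 0.05 at any fold. UCP3, a mitochondrial carrier of muscle and fat, read -0.21 and 1.54 in KO against -1.41 and -2.59 in WT. Its log2 fold change was 2.66 (SE 0.73, adjusted p = 0.040), and the adjusted p was 0.056 with the replicate number as a block, 0.063 without a filter on dim probes, 0.103 without KO replicate 2 and 0.101 without WT replicate 2. With 1 array left out it ran from 1.79 (without KO replicate 2) to 3.54 (without KO replicate 1), and 1 of its 2 tested probes was called. CD36, which takes up fatty acids, read 3.14 and 4.52 in KO against 1.71 and 0.63 in WT. It was higher by 2.66 (SE 0.61, adjusted p = 0.026), with adjusted p values of 0.075 without KO replicate 2 and 0.059 without WT replicate 2. It was 1.97 without KO replicate 2 and 3.36 without KO replicate 1. FABP3, a carrier of fatty acids in the cell, read 3.10 and 4.55 in KO against 1.31 and 1.63 in WT. It was higher by 2.36 (SE 0.52, adjusted p = 0.024), with an adjusted p of 0.052 without WT replicate 1. Its value was 1.63 without KO replicate 2 and 3.08 without KO replicate 1. The dimmer of 2 probes of ACADS was called lower, while the brighter one was not called.

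UCP3, CD36, FABP3 and SLC2A4 were each higher in KO replicate 2 than in KO replicate 1. PPARGC1A was lower in KO replicate 2 than in KO replicate 1, and PDK4 was nearly level between these arrays. The summed signal of the 10 adipocyte markers was 82.1 in KO replicate 1, 197 in KO replicate 2, 61.0 in WT replicate 1 and 39.6 in WT replicate 2. For PDK4 WT replicate 1 was the lower WT array, while for the adipocyte sum it was the higher one. The part of adipocyte RNA in these results was not tested.

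Of 11 genes of insulin and FOXO signals, which also set the level of PDK4, 6 were tested, with 2 higher, 0 lower and 4 not called in limma. Of all named genes 25.1% were called higher and 12.6% lower. At an unadjusted p under 0.05, 1 was lower, GSK3B, in limma and by the methods' t-test. IRS1, the main adaptor of the insulin receptor, was higher by 2.26 (SE 0.18, adjusted p = 0.0027) at its brighter probe, while its other tested probe, at 1.43 (SE 0.59, adjusted p = 0.111), was not called. IGF1R, the receptor of insulin-like growth factor 1, was higher by 1.27 (SE 0.16, adjusted p = 0.0058), with adjusted p values of 0.060 without KO replicate 1 and 0.054 without KO replicate 2 and a log2 fold change of 0.78 under normexp. FOXO3 and AKT1 were not called.

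The named genes whose 4 array values lay nearest to those of each member, after centring, were sought among 2513 named genes well above background on all 4 arrays. Likeness over 4 arrays is a description and rests mostly on the gap between the genotypes. PDK4 had the most distant neighbours, LMO1 at a Euclidean distance of 0.72 on the log2 scale and MUL1 at 0.97. LMO1 read 0.95 and 0.84 in KO against -2.82 and -1.93 in WT. PRKAA2 was nearest to ATP1B1, a sodium pump subunit, at 0.14, and to RNASE1, a secreted ribonuclease, at 0.15. LDHA was nearest to GPSM3 at 0.067 and SLC22A6 at 0.072, both called lower at their brightest probes, by -1.47 and -1.48, and both with an adjusted p of 0.051 without KO replicate 1. GAPDH was nearest to SLC25A3, the mitochondrial phosphate carrier, at 0.033 and FKBP3 at 0.035, HIF1A to RAB22A at 0.032 and SAT1 at 0.099, LDHB to CP at 0.037 and CELA2A at 0.089, and HK2 to LGALS1 at 0.12 and VGLL3 at 0.15.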

How the data were processed

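The intensity values were deposited by the authors as 1-colour scanner output (Feature Extraction 11.0.1.1 of Agilent, per the file headers), with background subtracted and no normalization between arrays. Labels and files hold Cy3 alone, although the methods speak of Cy-5 too. A table of log2 values deposited by the authors held quantile normalized signals of 27970 probes and served as an alternative. Control spots and outlier spots were left out and spots of a probe averaged. Tests were run with limma 3.58.1 in R 4.3.3 on the 31960 probes that in KO, in WT or in both were well above background on each array. No spot was saturated. A lower bound of a fold sets the mean of one genotype against the higher, on each array, of the lowest signal well above background and the probe's own.

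Probes were named through RefSeq accessions and the Sscrofa11.1 table (6686 of 43603 probes). A gene without a named probe may still be on the array. Its brightest probe represents a gene. The text gives all member probes, IL2RG, the genes called in each list with values for at most 3 in each direction, the reference genes and the 2 nearest genes of each member. The members, lists and 12 ratios were chosen with earlier results of these data known. The 12 ratio p values, adjusted by Benjamini-Hochberg, are 0.444 for the 9 without overlap. Tables and plots used Python 3.11.15, pandas 2.3.3 and matplotlib 3.10.9. The fit was tested on simulated data. Alternatives were other scalings, normexp (offset 50, on median intensities), other filters, blocks, the methods' t-test and each array left out. Spleen arrays were not analysed here, and 1 gene of the lists is not reported here.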

Additional observations from a re-analysis of the deposited data

How the results depend on the processing

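With 2 arrays per genotype the number of arrays limits the precision, and the adjusted p values use a spread pooled over all probes. The 10882 calls over all probes became 6622 under the normexp background correction, 1505 by the methods' t-test with Benjamini-Hochberg adjustment and 0 with Bonferroni, where 13771 probes had an unadjusted t-test p under 0.05, and 6094 to 12713 with 1 array left out (6424 without KO replicate 1, 6094 without KO replicate 2). Higher calls were 61.7% of all calls, 47.8% under median scaling, which moved the median fold change of all tested probes from -0.06 to -0.32. The 12 calls among member probes became 1 by the methods' t-test with Benjamini-Hochberg adjustment and 0 with Bonferroni, where 9 had an unadjusted p under 0.05, and 8 to 12 with 1 array left out. By that t-test, at the same fold changes, LDHA (-1.41, adjusted p 0.066), PDK4 (3.69, 0.117) and PRKAA2 (2.45, 0.075) were not called, nor by Bonferroni. With 1 array left out LDHA gave -1.54 to -1.27. HK2 turned to -0.079 under normexp. LDHB turned to -0.21 under median scaling, to -0.018 as the mean of its probes, and ran from -0.19 to 0.30 with 1 array left out (-0.19 without KO replicate 2, -0.07 without WT replicate 2). The dimmest PDK4 probe gave 0.41 under normexp and was not called. Normexp also gave 1.36 for PFKFB1, 1.30 for IRS1, 3.47 for SLC2A4, 1.97 for VEGFA and 1.03 for RNASE1, all called. The causes were not tested.

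Deviations of same-numbered arrays from the mean of their genotype correlated at -0.29 over 31960 probes. For arrays of 1 slide the value was 0.29, which is the same result with its sign turned. The arrays of a genotype deviate from their mean by equal and opposite amounts, so that 1 value fixes the other. It therefore cannot tell whether the replicate numbers pair the samples. With the replicate number as a block 10668 probes and 12 member probes were called, with the slide as a block, which is the crossed pairing, 11124 and 12, and neither changed the call of a member probe.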
